A study of Trametes pubescens and Hermanssonia centrifuga with 16 samples.

Results

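The white-rot fungus Phlebia centrifuga, strain FBCC195, for which GEO uses the name Hermanssonia centrifuga, was compared on wheat straw at 25 and 15 °C. The libraries were chosen by the substrate and temperature in their titles and treatment labels. They are 4 of the 16 libraries of the series, 2 from cultures labelled 25 °C and 2 from cultures labelled 15 °C. All 4 were made from mycelium grown for 21 days on 2 g (dry weight) of straw pieces at a moisture content of 60%, and all came from liquid precultures kept at 15 °C. For solid cultures the written protocol names 25 °C and not 15 °C, so the temperature contrast rests on the titles and treatment labels. The 15 °C cultures therefore stayed at the preculture temperature, while the 25 °C cultures changed from it, and a response to warm growth cannot be told apart from a response to that change. Nothing in the labels tells whether replicate libraries were grown as separate cultures. The p-values below therefore reflect only the spread among sequenced libraries, including the spruce libraries of the species for the gene calls. That spread may be technical.

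White-rot fungi secrete oxidative enzymes and glycoside hydrolases that open lignin and digest the cellulose and hemicellulose of plant cell walls. P. centrifuga is known from fallen spruce trunks in cool boreal forests, and straw, a grass material, is not its usual substrate. In fungi generally, growth temperature is known to alter membrane lipids, protein folding and the pace of metabolism, and the genes for these functions are commonly regulated at the level of mRNA. The files list gene models only by identifiers of the Joint Genome Institute (JGI), built from a model identifier, the scaffold, and the number of the model on it. The files do not pair these with gene names, and with no annotation in use the gene models are described without functions. Lists of cell wall enzymes, chaperones or transporters were for the same reason not tested.

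The files hold raw counts for 13785 gene models. The 25 °C libraries held 9977699 and 11431083 counts and the 15 °C libraries 11507628 and 10497924. At least 1 count was found for 12000 and 12013 models at 25 °C, against 11992 and 11964 at 15 °C. Every identifier carries the tag of the P. centrifuga genome. In what follows, CPM is the count scaled to a common library size with the TMM method (trimmed means of log ratios), which sets each library against the bulk of its genes. CPM is not corrected for gene length, so a level compares libraries and not the amounts of different transcripts. Replicates differed by more than sampling noise, with a chi-square per degree of freedom of 19.8 between the 25 °C libraries and 14.9 between the 15 °C libraries.

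Temperature separated the 4 libraries more widely than replication did. The Bray-Curtis distance, which is 0 for identical CPM profiles and 1 for profiles with no gene in common, lay between 0.136 and 0.150 for the 4 pairs made of a 25 °C and a 15 °C library. It was 0.0717 between the 25 °C replicates and 0.0594 between the 15 °C replicates. The mean distance across temperatures exceeded the mean within temperatures by 0.0747, with p = 0.333 in an exact permutation test (two-sided), the smallest value that 2 libraries against 2 allow. On the log2 scale the SD over genes of the difference between libraries was 0.580 to 0.632 across temperatures, 0.381 between the 25 °C replicates and 0.326 between the 15 °C replicates. Most genes moved little: the middle 50% of log2 fold changes (25 over 15 °C) ran from -0.26 to 0.27, and the 5th and 95th percentiles were -0.76 and 1.01.

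At 25 °C, 756 gene models rose and 607 fell relative to 15 °C, which is 6.48% and 5.21% of the 11658 tested (11.7% together). Calls are from edgeR's quasi-likelihood test at an adjusted p below 0.05, fitted over all 8 P. centrifuga libraries. The spruce libraries were not part of the contrast. They entered the estimate of the spread, the choice of tested models and the TMM scaling. Rises outnumbered falls among the changes of at least 2-fold and 4-fold, whereas the largest called change was a fall (4.79 in size on the log2 scale, against 4.23 for the largest rise). At least 2-fold, 404 models rose and 200 fell (3.47% and 1.72% of the tested models). At least 4-fold, 63 rose and 26 fell, and at least 8-fold, 8 rose and 6 fell (13 and 6 with libraries scaled by their totals). The balance at 8-fold rests on few models. It changed with the straw library left out, from equal numbers to a wider excess of rises. The smallest called changes were a log2 fold change of 0.39 among the rises and one of 0.36 in size among the falls, and the median SE of a log2 fold change was 0.17 for the rises and 0.15 for the falls. All 1363 called models had straw libraries that did not overlap between temperatures, but so did 63.7% of all tested models, 31% with the 25 °C libraries above and 32.7% with them below.

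The split between directions and the number of calls depended on the scaling and on which libraries were fitted. Without a straw library, 1 side has a single library, which by itself makes changes harder to call. The part of this in the lower counts was not tested. With libraries scaled by their totals alone, 1054 models rose and 361 fell (12.1% of the tested models), and the median log2 fold change of all tested genes was 0.11, against -0.01 with TMM. The rises of at least 4-fold still outnumbered the falls there, 95 against 21. Leaving out the first or the second straw library at 25 °C gave 463 or 490 calls in place of 1363, and leaving out those at 15 °C gave 254 or 422. Leaving out a spruce library gave 898 or 900 calls at 25 °C and 2209 or 2203 at 15 °C. The share of models called was 12.7% with DESeq2, 15.5% with the 4 straw libraries alone, 9.75% with the replicate number as a block, 5.81% with that block in the straw libraries alone, 29% with crossed numbers there, and 3.55% at an adjusted p below 0.01. The 604 changes of at least 2-fold became 380 and 399 when a 25 °C straw library was left out and 236 and 367 when one at 15 °C was. A core of 222 models (149 higher, 73 lower, 16.3% of the calls and 1.9% of the tested models) was called in the same direction with each of the 4 straw libraries left out in turn. Their median change was 1.63 in size on the log2 scale, against 0.84 for the other called models. The core had to pass fits with 1 straw library on a side, which favours large changes, so this difference is no separate result.

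**Figure D1:**
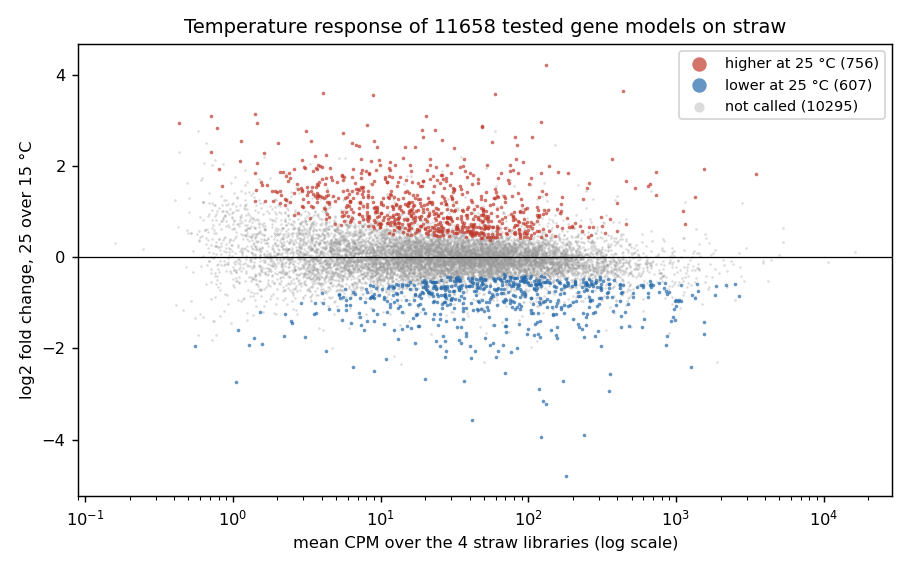
Each point is 1 of the 11658 tested gene models, with its mean CPM over the 4 straw libraries on a log axis and its log2 fold change (25 over 15 °C) on the vertical axis. Red points mark the 756 models called higher at 25 °C and blue points the 607 called lower. The red points spread over the left and middle of the plot, while the blue points lie mostly in the middle and to the right.

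The response at 25 °C was tilted along the range of expression. The tested models were put into 5 equal bins by their mean log2 CPM over the 4 straw libraries. In the lowest bin, with a median of 3.48 CPM, 172 models rose and 42 fell (7.38% and 1.80% of 2332). In the highest bin, with a median of 177 CPM, 79 rose and 223 fell (3.39% and 9.57% of 2331). From low to high, the bins in between had 192 rises and 77 falls, 161 and 123, and 152 and 142. The median log2 fold change of all models in a bin was 0.13 in the lowest bin and -0.11 in the highest.

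The same tilt was visible in the raw totals. The highest bin took 73.4% and 72.5% of the counts of the 25 °C libraries, against 75.1% and 75.6% in the 15 °C libraries. The lowest bin took 0.908% and 0.979% at 25 °C, against 0.790% and 0.753% at 15 °C. The 25 °C libraries lay below both 15 °C libraries for the highest bin and above both for the lowest. Replicates also differed along this range, though less. The median log2 difference of replicate 2 minus replicate 1 at 25 °C was 0.06 in the lowest bin and -0.06 in the highest, and at 15 °C it was -0.02 and 0.03. The part of such a drift between libraries in the tilt was not tested.

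Another scaling of the libraries shifts all log2 fold changes by about the same amount. It can therefore move the direction of a bin but cannot test the difference between bins. With scaling by library totals, 218 models rose and 28 fell in the lowest bin, and 131 rose and 137 fell in the highest. The median log2 fold change of the highest bin was then 0.01, so its direction depended on the scaling. Calls in the highest bin stood at 38 rises and 46 falls and at 44 and 50 without the first and second 25 °C library, and at 20 and 28 and at 27 and 68 without those at 15 °C. In the lowest bin the same fits gave 75 rises and 7 falls, 62 and 4, 28 and 3, and 43 and 11. Without the 25 °C spruce libraries the highest bin had 56 rises and 132 falls and 57 and 131, and the lowest 120 and 18 and 120 and 19. Without the 15 °C spruce libraries the highest bin had 134 and 402 and 134 and 404, and the lowest 213 and 67 and 210 and 67. Precision also changed along the range. The median SE of a log2 fold change was 0.30 in the lowest bin and 0.15 in the highest, and the smallest change called was 0.70 in size in the lowest bin and 0.40 in the highest. A total of 350 models in the lowest bin had a fitted change of at least 2-fold, of which 183 were called, while 99 of 132 were called in the highest bin. Smaller changes in low genes were not called in this fit.

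**Figure D2:**
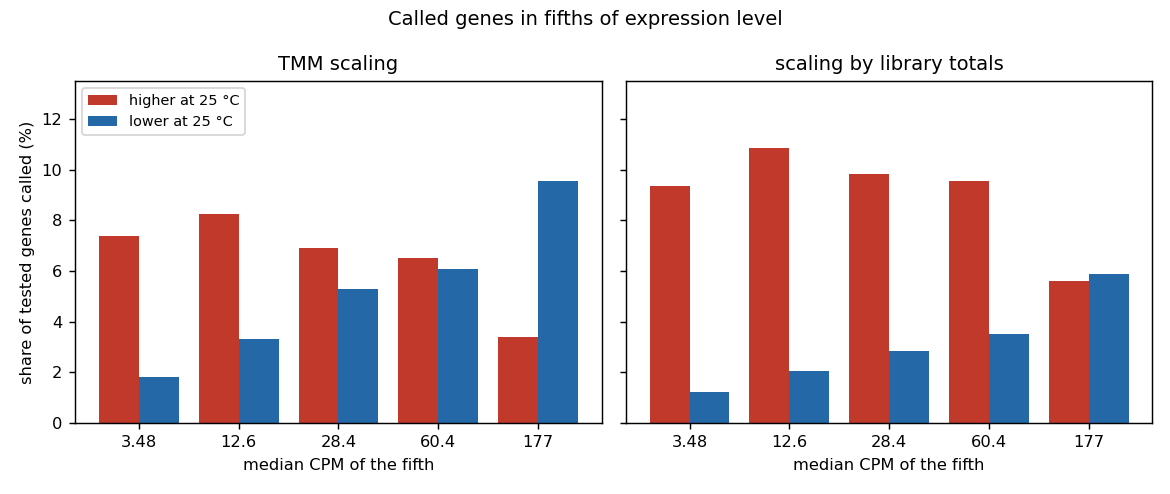
Bars give the share of tested models called higher (red) and lower (blue) at 25 °C, in 5 equal bins named by their median CPM, with TMM scaling on the left and scaling by library totals on the right. With TMM the share called lower climbs from 1.80% in the lowest bin to 9.57% in the highest, and with library totals it also climbs, while the bars for rises are the taller ones in the 4 lower bins.

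The genes that changed made up a modest part of the measured mRNA. The 756 models called higher took 6.07% and 6.46% of all counts at 25 °C, against 2.58% and 2.61% at 15 °C (6.26% ± 0.28 and 2.59% ± 0.03, SD, n = 2 each). The 607 models called lower took 7.27% and 7.65% at 25 °C, against 13.6% and 12.3% at 15 °C (7.46% ± 0.27 and 12.9% ± 0.91, SD, n = 2 each). These shares describe genes picked in the same libraries and carry no test. They follow the number of calls, and which direction moved the larger share depended on the libraries. With all 4 straw libraries the fallen genes lost more than the risen genes gained. Without the first 25 °C library the risen genes took 3.98% at 25 °C against 1.26% at 15 °C and the fallen genes 1.21% against 2.88%, and without the second 4.60% against 1.45% and 1.32% against 3.29%. Without the first 15 °C library the risen genes took 2.43% at 25 °C against 0.684% at 15 °C and the fallen genes 0.649% against 1.73%. In these 3 fits the gain was the larger one. Without the second 15 °C library the risen genes took 3.03% against 0.868% and the fallen genes 1.72% against 4.35%, and the loss was the larger one. With scaling by library totals the gain of the risen genes was again the larger one, with 8.78% at 25 °C against 4.09% at 15 °C for the risen and 4.45% against 8.73% for the fallen.

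Most of the models with the highest CPM were shared between temperatures. Of the 10 models with the highest mean CPM, 8 were the same at both temperatures, as were 74 of the top 100. Of the 100 highest at 25 °C, 9 were called higher and 8 lower. Of the 100 highest at 15 °C, 1 was called higher and 25 lower. In the highest level bin 3.39% were called higher and 9.57% lower, and over all tested models 6.48% and 5.21%. Each list was ranked in the libraries that gave the calls, which favours rises in the list ranked at 25 °C and falls in the one ranked at 15 °C. Genes counted at a single temperature were not found at this depth. No model had at least 10 counts in both libraries of 1 temperature and 0 in both of the other (0 of 13785), though 1 model at 25 °C met this rule when the first 15 °C library was left out. A count of 3, the limit that a count of 0 allows, corresponds to 0.301 and 0.262 CPM at 25 °C and 0.261 and 0.286 CPM at 15 °C, by library totals and for counting error only. No called model went below 1 CPM at 1 temperature from 10 CPM or more at the other.

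The changes that moved most CPM are shown by 4 gene models, the 2 that rose and the 2 that fell with the largest difference in CPM. They were picked among the models of the core called with each straw library left out, with no overlap between temperatures. The lack of overlap and the calls with a library left out are thus conditions of the choice of these 4 models. Their names and functions are not given in the files.

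The largest gain was in jgi|Phlcen1|9539|scaffold_2824.2, the model 2 of scaffold 2824. It had 5883 and 4925 CPM at 25 °C, against 1274 and 1747 CPM at 15 °C. The groups did not overlap, and the lower 25 °C library was well above the higher 15 °C library. By CPM this model ranked 5 among tested models at 25 °C and 55 at 15 °C. Its log2 fold change was 1.84 ± 0.20 (SE, edgeR adjusted p = 0.00232), and it lay between 1.63 and 2.08 with a straw library left out. The model before it on the scaffold, at 6.23 CPM at 25 °C and 1.54 CPM at 15 °C, also rose (log2 fold change 2.02 ± 0.24, adjusted p = 0.00326). The model after it had a log2 fold change of 0.22 ± 0.26 (adjusted p = 0.623).

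The second gain was in jgi|Phlcen1|11524|scaffold_521.27, the model 27 of scaffold 521. It had 2282 and 2631 CPM at 25 °C, against 597 and 681 CPM at 15 °C. Replicates were close at both temperatures, 2457 ± 247 and 639 ± 59.3 CPM (SD, n = 2 each). Its log2 fold change was 1.94 ± 0.15 (SE, edgeR adjusted p = 0.000985), and it ranked 15 at 25 °C and 224 at 15 °C. The models on either side did not pass the test, with log2 fold changes of -0.23 ± 0.19 before it and -0.52 ± 0.19 after it (adjusted p = 0.469 and 0.129).

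The largest loss was in jgi|Phlcen1|6167|scaffold_2364.19, the model 19 of scaffold 2364. It had 411 and 390.4 CPM at 25 °C, against 2594 and 1648 CPM at 15 °C. The 25 °C libraries nearly coincided, whereas the 15 °C libraries lay far apart, both well above 25 °C. Its log2 fold change was -2.40 ± 0.32 (SE, edgeR adjusted p = 0.00507), and the highest adjusted p with a straw library left out was 0.0461. The models in the next 2 places fell as well, with log2 fold changes of -1.32 ± 0.18 and -0.83 ± 0.19 (adjusted p = 0.00560 and 0.0335), at much lower levels of 9.48 and 12.3 CPM at 25 °C against 23.7 and 21.8 CPM at 15 °C.

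The second loss was in jgi|Phlcen1|8208|scaffold_2661.8, the model 8 of scaffold 2661. It had 811 and 655 CPM at 25 °C, against 2364 and 2346 CPM at 15 °C. Here the 15 °C libraries were nearly equal and the 25 °C libraries differed by more. Its log2 fold change was -1.68 ± 0.16 (SE, edgeR adjusted p = 0.00146), and it ranked 139 at 25 °C and 24 at 15 °C. The model before it also fell, to 64.3 CPM at 25 °C against 150.1 CPM at 15 °C (log2 fold change -1.22 ± 0.22, adjusted p = 0.0146), and the model after it had a log2 fold change of -0.04 ± 0.15 (adjusted p = 0.897).

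**Figure D3:**
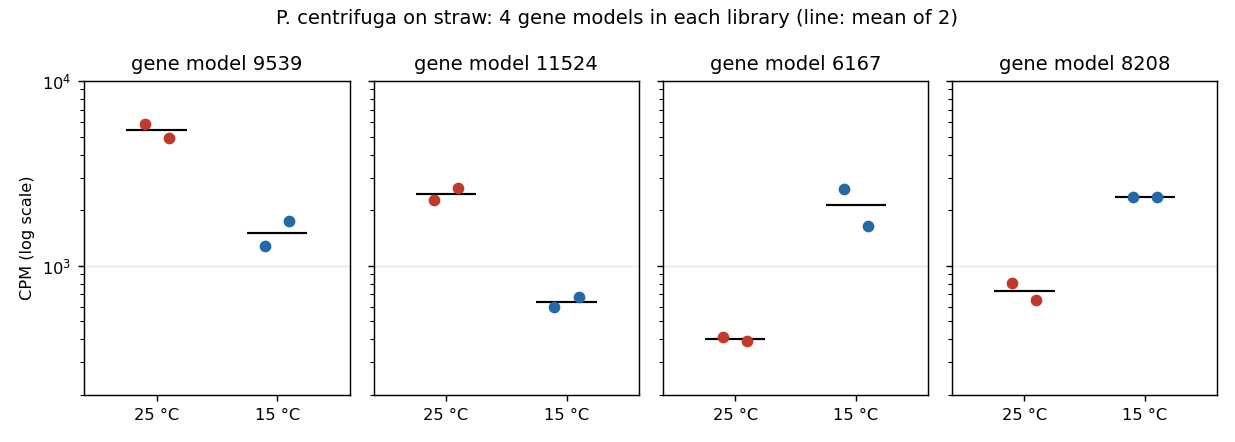
Points give the CPM of 4 gene models in each straw library on a log axis, red for 25 °C and blue for 15 °C, and lines mark the mean of 2 libraries. Models 9539 and 11524 lie higher at 25 °C and models 6167 and 8208 lower. The lack of overlap between temperatures in all 4 was a condition of their choice.

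Neighbouring gene models tended to respond alike to temperature. In fungi, genes of 1 pathway are at times found side by side and expressed together, which is why positions were examined. Model numbers were taken as the order along a scaffold, which was not checked against a genome. In 10275 pairs of tested models with consecutive numbers on the same scaffold, the log2 fold changes had a Pearson r of 0.211 (Spearman 0.206). The correlation was 0.0772 over 9449 pairs 2 numbers apart, 0.0448 over 8734 pairs 3 apart, 0.00821 over 7544 pairs 5 apart and 0.00903 over 5354 pairs 10 apart. These are correlations across pairs that share libraries and models, so they are descriptions and carry no p. Pairs in which neither model was called gave 0.186 at a distance of 1 (8127 pairs).

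The same closeness was present between replicates. The replicate 2 minus replicate 1 difference in log2 CPM had an r of 0.156 between adjacent models at 25 °C and 0.112 at 15 °C, and of 0.00372 and 0.00118 at 10 numbers apart. Both values for adjacent models were below the 0.211 for temperature, a difference that was not tested. The fold change sets 2 libraries against 2 and a replicate difference 1 against 1, so these correlations are not like measures. The closeness of neighbours was present between replicates too and thus not confined to the temperature contrast. Adjacent models also resembled each other in mean level (r of 0.144). The strand setting is not known, and the part of overlapping models in these correlations was not tested.

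**Figure D4:**
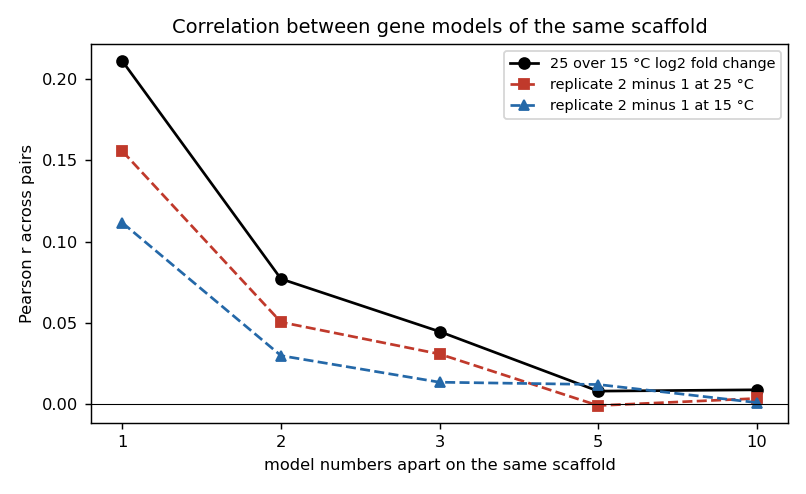
Pearson r across pairs of gene models on the same scaffold, by how many model numbers lie between them, for the log2 fold change of 25 over 15 °C (black) and for the replicate differences at 25 °C (red) and 15 °C (blue). All 3 lines fall from their value at adjacent models (0.211, 0.156 and 0.112) to near 0 at 5 and 10 numbers apart.

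Calls showed the same closeness. Of the 10275 adjacent pairs, 191 had both models called in the same direction (105 higher, 86 lower) and 52 had them called in opposite directions. Seen from a model called higher at 25 °C, the adjacent model was also called higher in 16.1% of cases, beside 6.48% of all tested models and 6.12% of models 10 numbers away. For models called lower it was 15.8%, beside 5.21% and 5.85%. The 191 pairs became 60 and 51 without the first and second 25 °C straw library, 29 and 47 without those at 15 °C, 108 without either 25 °C spruce library, and 376 and 377 without those at 15 °C. In 26 of the 10275 adjacent pairs both models belonged to the core, which is 1.9% of the tested models, with the same direction. It was 7 of 9449 pairs 2 numbers apart, 4 of 8734 pairs 3 apart, 4 of 7544 pairs 5 apart and 1 of 5354 pairs 10 apart.

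Runs of at least 3 consecutive models called in the same direction numbered 25, of which 14 were higher and 11 lower at 25 °C. They held 83 of the 1363 called models. Most were runs of 3 (12 higher, 8 lower). The longest, of 5 models, were 1 run that rose and 2 that fell.

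The rising run of 5 had log2 fold changes between 0.83 and 1.15. Its models added up to 613 and 652 CPM at 25 °C, against 336 and 342 CPM at 15 °C. The rise was similar in size in all 5 although their levels ranged widely: at 25 °C the model in place 3 had 447 and 469 CPM and the last model 10.4 and 6.57 CPM. Of these 5, 1 belonged to the core, and the weakest call had an edgeR adjusted p of 0.0495.

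One falling run of 5 had log2 fold changes between -2.08 and -1.46, larger in size than in the rising run. Its models added up to 66.8 and 63.2 CPM at 25 °C, against 248 and 257 CPM at 15 °C. Its last model carried much of this, with 26.4 and 32.1 CPM at 25 °C against 119.7 and 128 CPM at 15 °C. The other falling run had log2 fold changes between -1.73 and -1.05 and summed levels of 568 and 582 CPM at 25 °C, against 1604 and 1199 CPM at 15 °C. In both falling runs the summed 25 °C libraries were close together and below both 15 °C libraries, and 2 of the 5 models of each belonged to the core.

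A rising run of 4 held larger changes, with log2 fold changes of 1.70, 2.03, 2.79 and 0.95 along the run. Its models added up to 97.8 and 116 CPM at 25 °C, against 26.9 and 26.9 CPM at 15 °C, and 3 of them belonged to the core. The other run of 4 fell, with log2 fold changes between -1.15 and -0.48, and its weakest call had an edgeR adjusted p of 0.0499. It held no core model. The runs were picked out by their calls in the same libraries, so their levels carry no test of their own.

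**Figure D5:**
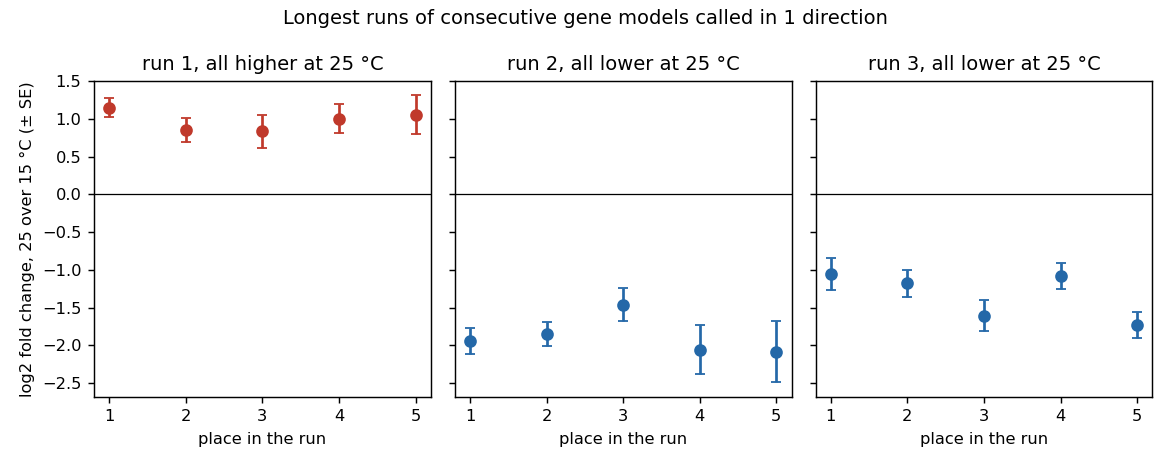
Log2 fold changes (25 over 15 °C) with their SE for the models of the 3 longest runs, in the order of their model numbers. The first run lies between 0.83 and 1.15, the second between -2.08 and -1.46 and the third between -1.73 and -1.05.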

How the data were processed

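The members and lists were chosen with earlier results of these data known. The deposited values are raw counts per gene model and library. Per the submitters' processing notes, the authors used Trimmomatic 0.36 and STAR 2.7.10a; for the genome build, annotation version and strand setting: not given in the sources used here. Models were kept by edgeR's filterByExpr (11658 of 13785), scaled by TMM and fitted with edgeR 4.0.16 (R 4.3.3) as 1 mean for each of 4 groups over 8 libraries, with 4 residual degrees of freedom and no replicate block. The contrast of 25 against 15 °C on straw was tested by quasi-likelihood F test, with Benjamini-Hochberg adjustment over all tested models. The SE is the size of the log2 fold change divided by the square root of F. Log2 CPM used a prior count of 2. The fit was tested on simulated data, drawn independently for each model and library. Such data lack the correlations between neighbours and between replicate differences described here, so they do not test the calls. Named models are the 2 that rose and the 2 that fell with the largest CPM difference among called, non-overlapping models also called with each straw library left out. Alternatives were RLE and total-count scaling, other filters, DESeq2 1.42.0, the straw libraries alone, a replicate block, a stricter threshold and leaving out each library.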

Additional observations from a re-analysis of the deposited data

How the results depend on the processing

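The 4 named models were selected for keeping their call with each straw library left out, and they also kept direction and call in the other settings tried. An adjusted p below 0.01 left 414 calls (266 higher, 148 lower, 326 at least 2-fold), 2.36% and 4.03% of the lowest and highest level bins and 53 adjacent same-direction pairs. Scaling by library totals gave 361 lower calls, a median log2 fold change of 0.11 and shares of counts of 8.78% (25 °C) and 4.09% (15 °C) for called-higher and 4.45% and 8.73% for called-lower models. The 4 straw libraries alone gave 1794 calls, 1273 of them shared in sign with the 1363, and called 21.0% of the highest bin. DESeq2 called 1479, of which 1247 were shared. With no filter, the correlation of adjacent models was 0.196.

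The labels do not say that replicate numbers pair the samples, and the replicate differences at 25 and 15 °C had an r of -0.32 across genes. With the replicate block over 8 libraries, 1137 models were called, 1090 of them shared. Settings chosen after seeing the data were the replicate block within the 4 straw libraries (671 calls, 375 higher and 296 lower, 3.55% and 7.75% of the lowest and highest bins, 80 adjacent pairs) and the same with crossed numbers (3347 calls, 1647 and 1700, 17.0% and 38.3%, 728 pairs). The causes were not tested.

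With each of the 8 libraries left out in turn, the calls ranged from 254 to 2209, the higher calls from 163 to 1108, the lower calls from 91 to 1102, the at least 2-fold calls from 236 to 698, and the median log2 fold change of all models from -0.0235 to 0.0044. The lowest bin was called at 1.32% to 11.9% and the highest at 2.05% to 22.9%. Adjacent same-direction pairs ranged from 29 to 377. The values that follow were computed for the 4 straw libraries only. With 1 of them left out, the correlation of adjacent models ranged from 0.192 to 0.206. The called-higher share of counts ranged from 2.43% to 4.60% at 25 °C and from 0.684% to 1.45% at 15 °C, the called-lower share from 0.649% to 1.72% and from 1.73% to 4.35%, and models counted at 25 °C only from 0 to 1. A left-out library leaves 1 in its group, which is assumed to vary like the others.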
